A study of Mus musculus with 24 samples.

Results

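The proteasome and immunoproteasome subunits were the 48 genes, of 24421 in the count table, whose symbols consist of Psm, a letter from a to g and a number. They comprised 8 alpha subunits, 11 beta subunits, 6 ATPases and 11 other subunits of the cap, 3 cap assembly factors, 4 core assembly factors, 4 activators and 1 inhibitor. Of these, 47 passed the filter on low counts and 12742 genes were tested in all. The exception was Psmb11, the beta subunit of cortical thymus, with 2 counts in combination replicate 12 and 0 in each of the other 11 specimens. Psmc3ip and Psme2b do not have symbols of this form, and reads of Psme2b, a near copy of Psme2, may be shared with Psme2.

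Expression was measured by RNA-seq of total RNA from bone marrow mononuclear cells of mice carrying Shp2 E76K, an activating change in a phosphatase of the RAS pathway, used as a model of juvenile myelomonocytic leukemia. All 4 groups carried Shp2 E76K, so no group without it was analysed here, and neither age nor the way the allele was driven is stated in the labels. For 3 weeks the mice received ACP196, which inhibits Bruton's tyrosine kinase (the BTK inhibitor group, replicates 4 to 6). Others received ACP319, which inhibits the p110δ isoform of phosphoinositide 3-kinase (the PI3K inhibitor group, replicates 7 to 9), both drugs (the combination, replicates 10 to 12), or vehicle (replicates 1 to 3). Each specimen number stands on 2 of the 24 listed samples and has 1 count column, and the labels do not tie the numbers to single mice. Tests therefore weigh differences against the spread between specimens, which may be partly technical.

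Depth lay between 8993950 and 22154833 counts per specimen. BTK inhibitor replicate 5 was the shallowest, with 15.4% of its counts on the ribosomal RNA gene Rn45s against 0.203% to 0.773% in the other 11 specimens. The title of BTK inhibitor replicate 6 carries day 30 of a month where the others carry day 24, and the labels do not say what was done on that day. Although the cells are labelled mononuclear, 11 neutrophil markers summed to between 59996 and 216011 CPM, which are counts scaled to a common library size. Shares of cells and RNA per cell cannot be told apart in bulk RNA, so a lower CPM can mean fewer cells of a type or less RNA in each.

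The proteasome degrades proteins that carry ubiquitin chains. Its core is a barrel of alpha and beta rings, in which the catalytic beta subunits Psmb5, Psmb6 and Psmb7 cut the substrate. A cap of ATPases and other subunits recognises, unfolds and feeds in the substrate. Interferon gamma induces Psmb8, Psmb9 and Psmb10, which take the places of Psmb5, Psmb6 and Psmb7 in newly made cores and give the immunoproteasome, abundant in blood cells and a source of peptides for MHC class I.

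The starts of 4 genes are shown because they represent inducible subunits (Psmb8, Psmb9), an inducible activator (Psme1) and a constitutive catalytic subunit (Psmb5). Each window holds 300 bases, 250 before and 50 from the start of the gene on, read 5′ to 3′ on its strand from RefSeq promoters on GRCm38.p6. Capitals mark matches, on either strand, to GAAANNGAAA (a core of the interferon-stimulated response element), TTCNNNGAA (a STAT-type site) or TGACNNNGC (a core of the antioxidant response element). Windows were found for 40 of the 48 genes. The Psmb8 window (chr17:34197945-34198244, plus strand) holds 1 STAT-type match that begins 97 bases before the start. The Psmb9 window (chr17:34187281-34187580, minus strand) holds none of the 3, and shares 275 bases with the window of Tap1, a peptide transporter gene that starts 226 bases away on the other strand. The Psme1 window (chr14:55578244-55578543, plus strand) holds 1 response element match that begins 9 bases after the start. The Psmb5 window (chr14:54617946-54618245, minus strand) holds 1 antioxidant type match that begins 47 bases before the start.
Psmb8: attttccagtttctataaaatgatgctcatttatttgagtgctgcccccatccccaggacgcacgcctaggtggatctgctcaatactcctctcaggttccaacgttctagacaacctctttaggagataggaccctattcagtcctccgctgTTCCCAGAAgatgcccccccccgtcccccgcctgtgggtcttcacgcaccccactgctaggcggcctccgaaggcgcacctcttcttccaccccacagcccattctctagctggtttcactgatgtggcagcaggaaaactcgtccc
Psmb9: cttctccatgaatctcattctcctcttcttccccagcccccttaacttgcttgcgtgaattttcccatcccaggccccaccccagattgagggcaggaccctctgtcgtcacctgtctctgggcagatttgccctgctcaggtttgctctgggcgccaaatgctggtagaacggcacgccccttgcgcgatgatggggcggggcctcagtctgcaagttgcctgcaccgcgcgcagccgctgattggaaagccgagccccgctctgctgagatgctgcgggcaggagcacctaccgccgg
Psme1: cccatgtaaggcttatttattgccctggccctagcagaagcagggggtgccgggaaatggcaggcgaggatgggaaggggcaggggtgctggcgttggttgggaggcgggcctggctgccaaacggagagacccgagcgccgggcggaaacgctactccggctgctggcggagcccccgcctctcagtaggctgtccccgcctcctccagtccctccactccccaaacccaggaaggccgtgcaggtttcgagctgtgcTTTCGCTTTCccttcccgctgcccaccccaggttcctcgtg
Psmb5: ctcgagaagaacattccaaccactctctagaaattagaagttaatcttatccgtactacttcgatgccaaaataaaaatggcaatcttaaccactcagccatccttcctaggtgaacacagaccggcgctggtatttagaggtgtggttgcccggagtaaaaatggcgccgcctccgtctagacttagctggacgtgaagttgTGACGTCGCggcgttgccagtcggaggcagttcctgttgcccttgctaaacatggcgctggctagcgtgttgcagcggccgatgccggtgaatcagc
GAAANNGAAA was found in 5 of the 40 genes (Psmb3, Psmd4, Psmd9, Psme1 and Psmg4) and in 3.44% of all 32851 windows. TTCNNNGAA was found in 3 genes (Psmb8, Psmd2 and Psmg1) and in 8.3% of all windows. TGACNNNGC was found in 6 genes (Psmb5, Psmb6, Psmc6, Psmd12, Psmd9 and Psme4) and in 12.4% of all windows. The 40 genes had 43 windows, and a gene was counted when any of its windows matched. Counts of genes and shares of single windows are thus unlike measures. These matches describe letters and are not binding data.

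Most subunits had higher CPM with either inhibitor alone than with vehicle, and levels near vehicle with both. Over the 47 tested subunits the median log2 difference from vehicle was 0.85 with the BTK inhibitor, 1.02 with the PI3K inhibitor and 0.12 in the combination, against medians over all tested genes of -0.02, -0.01 and 0.00. The 3 comparisons share the vehicle specimens. Single specimens moved these medians: that with the BTK inhibitor was 0.55 without BTK inhibitor replicate 5, and that of the combination ran between -0.02 without vehicle replicate 2 and 0.23 without vehicle replicate 3. Summed over the 47 genes, the BTK inhibitor specimens had 9111, 15036 and 5657 CPM and the PI3K inhibitor specimens had 7297, 10627 and 12723 CPM. The combination specimens had 6515, 4945 and 5262 CPM and the vehicle specimens had 5387, 4412 and 5929 CPM. All 3 PI3K inhibitor specimens lay above every vehicle specimen, BTK inhibitor replicate 6 lay among the vehicle specimens, and the combination overlapped with vehicle.

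**Figure D1:**
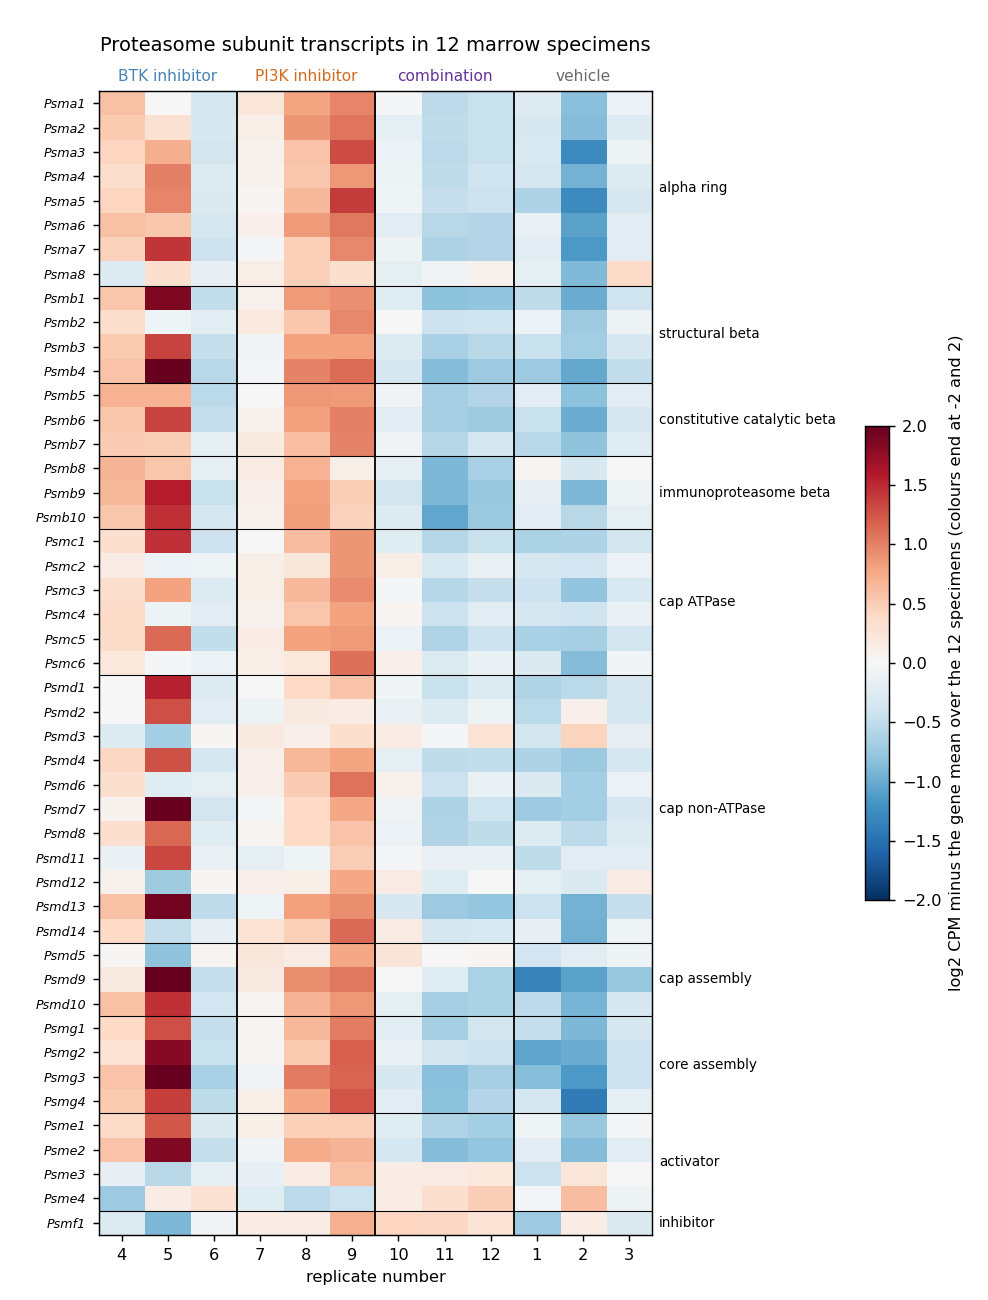
Log2 CPM of each of the 47 tested subunits (grouped by role, down the page) minus its mean over the 12 specimens, in the BTK inhibitor, PI3K inhibitor, combination and vehicle specimens (numbered columns). Red is above and blue below the gene's mean, and the colours end at -2 and 2; BTK inhibitor replicates 4 and 5 and PI3K inhibitor replicates 8 and 9 are mostly red, and BTK inhibitor replicate 6 is mostly blue.

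With the PI3K inhibitor, 7 of 47 subunits were past the threshold of 0.05 on the adjusted p (the quasi-likelihood test of edgeR, adjusted by Benjamini-Hochberg over 12742 genes), all higher, and the same rule called 4.84% of all tested genes higher. At an unadjusted p under 0.05 the counts were 32 subunits and 18.1% of genes. PI3K inhibitor and vehicle specimens did not overlap, with the PI3K inhibitor higher, for 41 subunits and 24.9% of genes. DESeq2 called 28 subunits higher and 12.5% of genes. In edgeR 0 subunits and 5.82% of genes were lower past the threshold, and 0 subunits and 17.6% of genes at an unadjusted p under 0.05. DESeq2 called 0 subunits and 12.7% of genes lower.

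With the BTK inhibitor, edgeR called 0 subunits at an adjusted p under 0.05, and 0% of all tested genes higher. At an unadjusted p under 0.05, 31 subunits and 15.8% of genes were higher. Specimens did not overlap, with the BTK inhibitor higher, for 8 subunits and 8.92% of genes. DESeq2 called 14 subunits and 7.17% of genes higher. Without BTK inhibitor replicate 6, edgeR called 32 subunits higher, and 16.1% of genes. That fit kept replicate 5, the shallowest library. Without replicate 4 or replicate 5 instead, edgeR called 0 subunits and at most 1 of all tested genes.

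In the combination, edgeR called 0 subunits higher than vehicle and 0 lower, with 0% of genes called in either direction, and DESeq2 also called 0 of the subunits. At an unadjusted p under 0.05, 1 subunit (Psmf1) and 3.41% of genes were higher, and 0 subunits and 1.51% of genes were lower. Combination specimens lay above all vehicle specimens for 4 subunits and 9.32% of genes, and below them for 0 subunits and 9.47% of genes. These shares of subunits are close to or under those of all genes.

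Libraries also differed in how expression depended on gene length, and the subunits are short genes, with a median length of 1344 bases against 2835 for all tested genes. The slope of log2 expression, relative to the mean of all specimens, on each doubling of length was -0.28, -0.35 and 0.18 in the BTK inhibitor specimens and -0.10, -0.37 and -0.38 in the PI3K inhibitor specimens. It was 0.09, 0.25 and 0.29 in the combination and 0.15, 0.40 and 0.12 in vehicle. The 5 specimens of negative slope were the 5 with the highest summed subunit CPM (7297 to 15036, against 4412 to 6515 in the other 7). With a length term for each library in the model, the median log2 difference over the subunits was 0.28 with the BTK inhibitor, 0.36 with the PI3K inhibitor and 0.08 in the combination. These medians stand beside 0.04, 0.01 and -0.03 over all genes. That fit called 0 subunits and 0 of 12742 genes in each of these 3 comparisons. When BTK inhibitor replicate 5 was also left out, it called 10 subunits higher with the PI3K inhibitor, 3 of them among the 7, and 9.56% of genes.

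**Figure D2:**
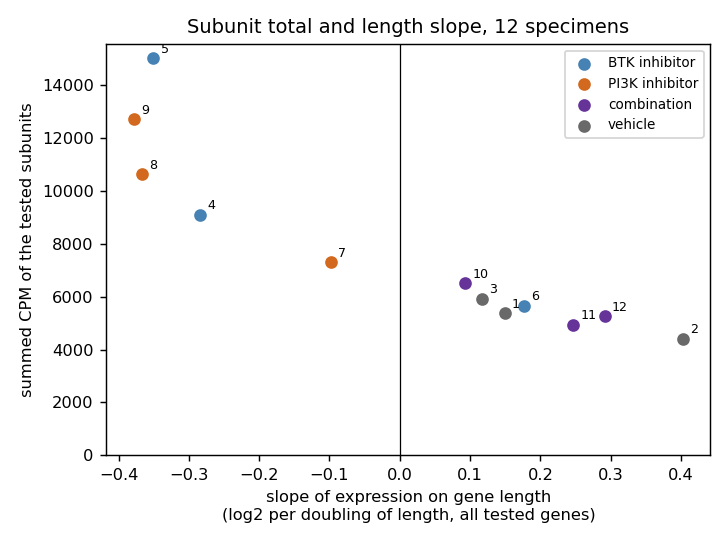
Summed CPM of the 47 tested subunits (y axis, linear, from 0) against the slope of log2 expression on doubling of gene length over all tested genes (x axis), 1 numbered point per specimen, coloured by group. The 5 points of negative slope, all from single inhibitor groups, lie between 7297 and 15036 CPM, and the other 7 between 4412 and 6515 CPM.

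The 39 subunits of up to 2000 bases had a median log2 difference of 0.93 with the BTK inhibitor, 1.06 with the PI3K inhibitor and 0.09 in the combination. For the 8 longer ones, Psmd1, Psmd2, Psmd3, Psmd5, Psmd9, Psme3, Psme4 and Psmf1, the medians were -0.04, 0.46 and 0.22. Across the 47 subunits, Pearson's r of the log2 difference on log2 length was -0.44 with the BTK inhibitor, -0.61 with the PI3K inhibitor and 0.42 in the combination. These values describe genes measured in the same libraries, which are not independent.

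**Figure D3:**
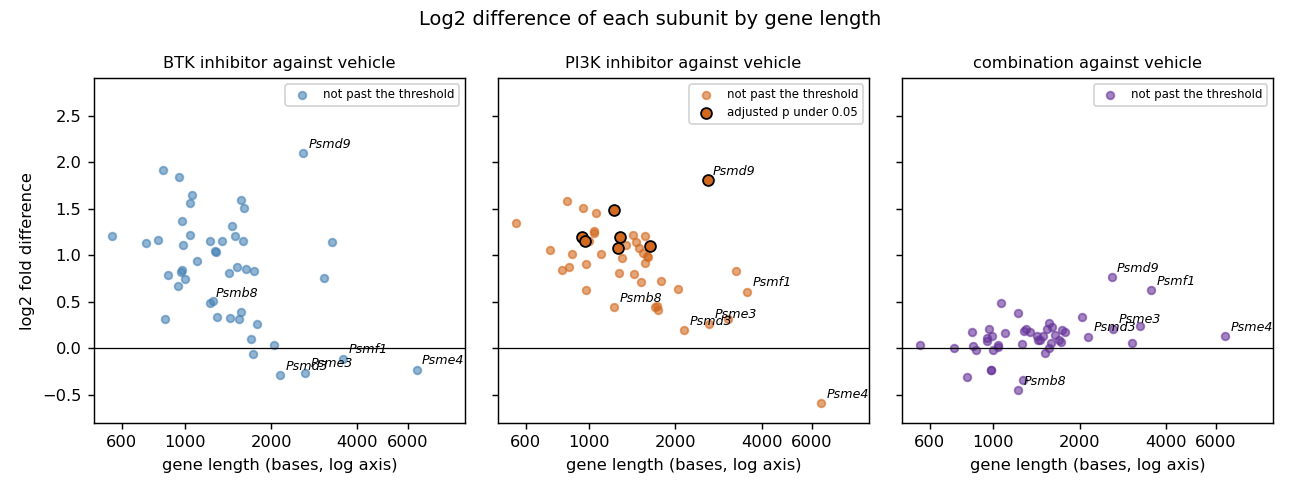
Log2 fold difference from vehicle (y axis) against gene length in bases (x axis, log scale) for the 47 tested subunits, in panels for the BTK inhibitor, the PI3K inhibitor and the combination, each point a gene. Outlined points are the 7 subunits past the threshold with the PI3K inhibitor; Psmd9 stands above the other long genes in all 3 panels.

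The alpha ring forms the gated entrance of the core. All 8 alpha genes had positive log2 differences with the PI3K inhibitor (median 1.11), and Psma1, Psma2 and Psma5 were past the threshold. Psma5 had 163, 250 and 419 CPM in PI3K inhibitor specimens, against 104, 65.9 and 126 CPM in vehicle specimens. The groups did not overlap, and the log2 difference was 1.49 (SE 0.40, edgeR adjusted p = 0.041). Psma2 had 256, 433 and 491 CPM in PI3K inhibitor specimens, against 187, 129 and 197 CPM in vehicle specimens, again without overlap (log2 difference 1.20, SE 0.31, edgeR adjusted p = 0.041). Psma1 differed by 1.08 (SE 0.31, edgeR adjusted p = 0.047), and Psma6, whose adjusted p of 0.050 lay just over the threshold, by 1.15. With the length term the differences were 0.77 for Psma5, 0.31 for Psma2 and 0.40 for Psma1. Psma8, the alpha subunit of germ cells in the testis, was measured with 24 to 117 counts per specimen.

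The structural beta subunits Psmb1, Psmb2, Psmb3 and Psmb4 complete the inner rings and do not cut substrate. In edgeR 0 of the 4 were past the threshold against vehicle with either inhibitor, while at an unadjusted p under 0.05 3 were higher with the BTK inhibitor and 4 with the PI3K inhibitor. DESeq2 called the same numbers, 3 and 4, higher. Of all genes, 15.8% and 18.1% were higher at that unadjusted p, and 7.17% and 12.5% in DESeq2, in the same order. Psmb4 had 448, 1291 and 205 CPM in BTK inhibitor specimens and 292, 598 and 651 CPM in PI3K inhibitor specimens. It had 239, 165 and 182 CPM in the combination and 181, 147 and 215 CPM in vehicle. BTK inhibitor replicate 5 was the highest of the 12, as for Psmb1, where it had 1030 CPM. The log2 difference of Psmb4 from vehicle was 1.84 with the BTK inhibitor (SE 0.53, edgeR adjusted p = 0.14) and 1.50 with the PI3K inhibitor (SE 0.53, edgeR adjusted p = 0.069).

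Psmb5, Psmb6 and Psmb7 are the constitutive catalytic subunits, of chymotrypsin-like, caspase-like and trypsin-like activity in that order. Psmb7 (chr2:38588046-38643906, minus strand, mm10) had 241, 239.5 and 150.05 CPM in BTK inhibitor specimens and 193, 259.5 and 339 CPM in PI3K inhibitor specimens. It had 163, 115 and 134 CPM in the combination, against 116, 97.8 and 143 CPM in vehicle. Both single inhibitor groups lay above vehicle without overlap. The difference passed the threshold with the PI3K inhibitor (log2 1.15, SE 0.29, edgeR adjusted p = 0.041), and with the BTK inhibitor it was 0.82 (SE 0.29, edgeR adjusted p = 0.14).

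Psmb5 (chr14:54614120-54617995, minus strand) had 142, 142 and 60.0 CPM in BTK inhibitor specimens and 87.4, 159 and 157 CPM in PI3K inhibitor specimens. It had 83.3, 54.8 and 58.1 CPM in the combination, against 75.2, 49.5 and 74.4 CPM in vehicle. Psmb6 (chr11:70525357-70527858, plus strand) had 244, 423 and 121 CPM in BTK inhibitor specimens and 177, 294 and 333 CPM in PI3K inhibitor specimens. It had 143, 104 and 102 CPM in the combination, against 123, 83.4 and 133 CPM in vehicle. For both genes the PI3K inhibitor specimens lay above all vehicle specimens, and BTK inhibitor replicate 6 and the combination overlapped with vehicle. The log2 differences with the PI3K inhibitor were 1.02 for Psmb5 (edgeR adjusted p = 0.071) and 1.24 for Psmb6 (edgeR adjusted p = 0.058). In the combination they were -0.02 for Psmb5, 0.04 for Psmb6 and 0.21 for Psmb7; those of Psmb5 and Psmb6 changed sign when single specimens were left out.

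In the combination the log2 differences of the 3 inducible subunits from vehicle were negative, and 0 of them were past the threshold in edgeR, at an unadjusted p under 0.05 or in DESeq2. Psmb8 (chr17:34198195-34201454, plus strand), the inducible counterpart of Psmb5, had 257, 236 and 143 CPM in BTK inhibitor specimens and 180, 260 and 175 CPM in PI3K inhibitor specimens. It had 141, 86.6 and 103 CPM in the combination, against 165, 128 and 159 CPM in vehicle. Combination replicates 11 and 12 were below every vehicle specimen, and replicate 10 was within their range. The log2 difference was 0.44 with the PI3K inhibitor (SE 0.29, edgeR adjusted p = 0.29) and -0.45 in the combination (SE 0.29, edgeR adjusted p = 1.00).

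Psmb9 (chr17:34182099-34187330, minus strand), the counterpart of Psmb6, had 153, 288 and 71.1 CPM in BTK inhibitor specimens and 104, 170 and 136 CPM in PI3K inhibitor specimens. It had 75.2, 52.1 and 57.2 CPM in the combination, against 86.2, 51.7 and 90.1 CPM in vehicle. The PI3K inhibitor specimens lay above vehicle without overlap, and the combination overlapped with it. The log2 differences were 1.16 with the BTK inhibitor (edgeR adjusted p = 0.14), 0.84 with the PI3K inhibitor (edgeR adjusted p = 0.16) and -0.30 in the combination (edgeR adjusted p = 1.00).

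Psmb10 (chr8:105935728-105938392, minus strand), the counterpart of Psmb7, had 91.0, 173 and 49.1 CPM in BTK inhibitor specimens and 66.9, 112 and 86.1 CPM in PI3K inhibitor specimens. It had 51.7, 30.6 and 37.5 CPM in the combination, against 53.9, 42.7 and 54.6 CPM in vehicle. As for Psmb8, combination replicates 11 and 12 lay below every vehicle specimen. The log2 differences were 1.04 with the BTK inhibitor (edgeR adjusted p = 0.15), 0.81 with the PI3K inhibitor (edgeR adjusted p = 0.15) and -0.34 in the combination (edgeR adjusted p = 1.00). The differences with the PI3K inhibitor in the fit with the length term were -0.24, -0.09 and 0.13 for Psmb8, Psmb9 and Psmb10, and 0.08, 0.41 and 0.28 for Psmb5, Psmb6 and Psmb7. Within each pair the inducible subunit had the lower value in that fit, a contrast that was not tested there. Psmb10 lay above Psmb5, so the values of inducible and constitutive subunits overlapped. In the combination the differences in that fit were -0.52, -0.37 and -0.40 for Psmb8, Psmb9 and Psmb10.

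**Figure D4:**
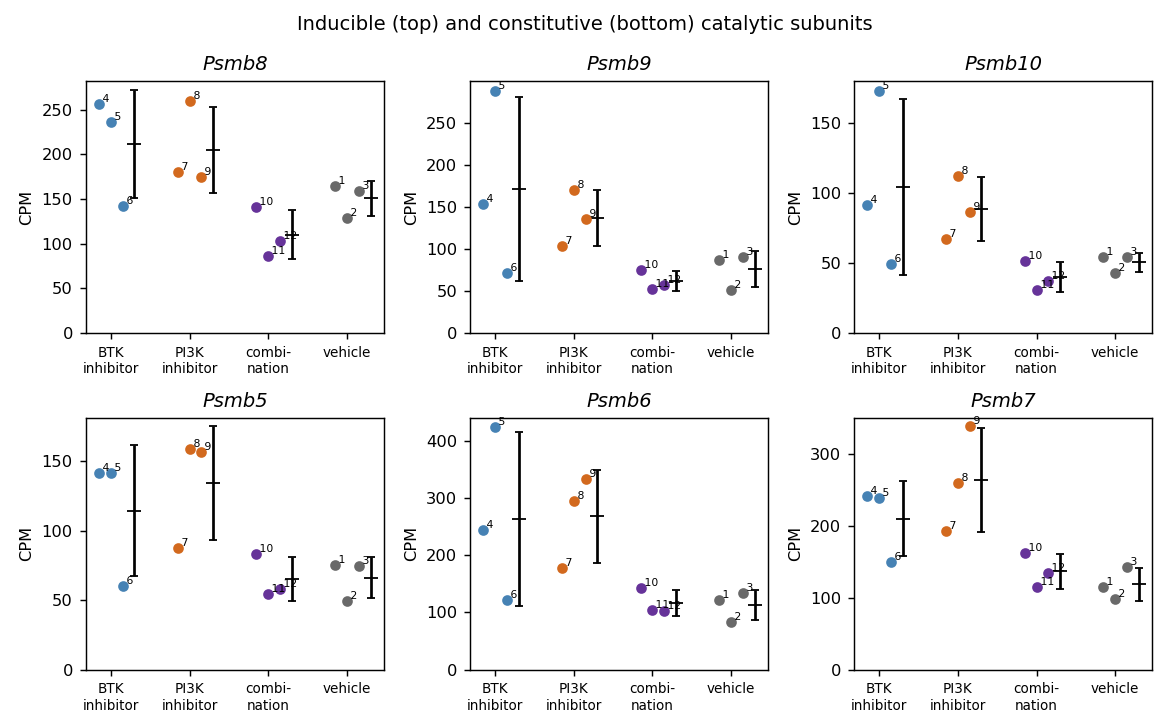
CPM (y axis, linear, from 0) of the inducible subunits Psmb8, Psmb9 and Psmb10 (top) and the constitutive subunits Psmb5, Psmb6 and Psmb7 (bottom), with numbered points for specimens and bars for the mean and SD (n = 3) of the BTK inhibitor, PI3K inhibitor, combination and vehicle groups. PI3K inhibitor specimens are above all vehicle specimens in each of the 6 panels, and 2 of the 3 combination specimens are below vehicle for Psmb8 and Psmb10.

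A ratio of an inducible subunit to its constitutive counterpart within a library does not depend on the scaling of that library. The log2 ratio of Psmb8 to Psmb5 counts was 0.86, 0.73 and 1.25 in BTK inhibitor specimens and 1.04, 0.71 and 0.16 in PI3K inhibitor specimens. It was 0.76, 0.66 and 0.83 in the combination, against 1.13, 1.37 and 1.10 in vehicle. Combination and PI3K inhibitor specimens all lay below vehicle, and PI3K inhibitor replicate 9 was the lowest. The group means were 0.95 ± 0.27 with the BTK inhibitor, 0.64 ± 0.45 with the PI3K inhibitor, 0.75 ± 0.09 in the combination and 1.20 ± 0.15 with vehicle (SD, n = 3 each).

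For Psmb9 to Psmb6 the means were -0.66 ± 0.11 with the BTK inhibitor, -0.95 ± 0.30 with the PI3K inhibitor, -0.92 ± 0.09 in the combination and -0.59 ± 0.09 with vehicle (SD, n = 3 each). For Psmb10 to Psmb7 they were -1.16 ± 0.61, -1.57 ± 0.38, -1.80 ± 0.13 and -1.23 ± 0.15 in the same groups. Combination specimens lay below all vehicle specimens in each of the 3 ratios (-1.001 to -0.831 against -0.690 to -0.508 for Psmb9 to Psmb6, and -1.91 to -1.66 against -1.39 to -1.10 for Psmb10 to Psmb7). For 3 against 3 specimens the smallest two-sided p an exact permutation test allows is 0.1.

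No ratio was past 0.05 in the test over all 4 groups, an exact permutation of the F statistic over 369600 assignments. The exact p was 0.139 for Psmb8 to Psmb5, 0.0559 for Psmb9 to Psmb6 and 0.197 for Psmb10 to Psmb7, and 0.197, 0.168 and 0.197 after Benjamini-Hochberg adjustment over the 3. Before adjustment, the exact p for Psmb9 to Psmb6 was 0.0146 with the length term, 0.0449 with 5 CPM added, 0.0435 without PI3K inhibitor replicate 7 and 0.0115 without replicate 9. Without replicate 7 that for Psmb8 to Psmb5 was 0.0197. Other specimens left out gave larger values. Over all such fits the unadjusted exact permutation p ranged from 0.0115 to 0.142 for Psmb9 to Psmb6. For Psmb8 to Psmb5 it ranged from 0.0197 to 0.344, and for Psmb10 to Psmb7 from 0.0919 to 0.368. The combination minus vehicle difference in log2 ratio was -0.45, -0.33 and -0.57, and with the length term -0.43, -0.35 and -0.55, for Psmb8 to Psmb5, Psmb9 to Psmb6 and Psmb10 to Psmb7.

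**Figure D5:**
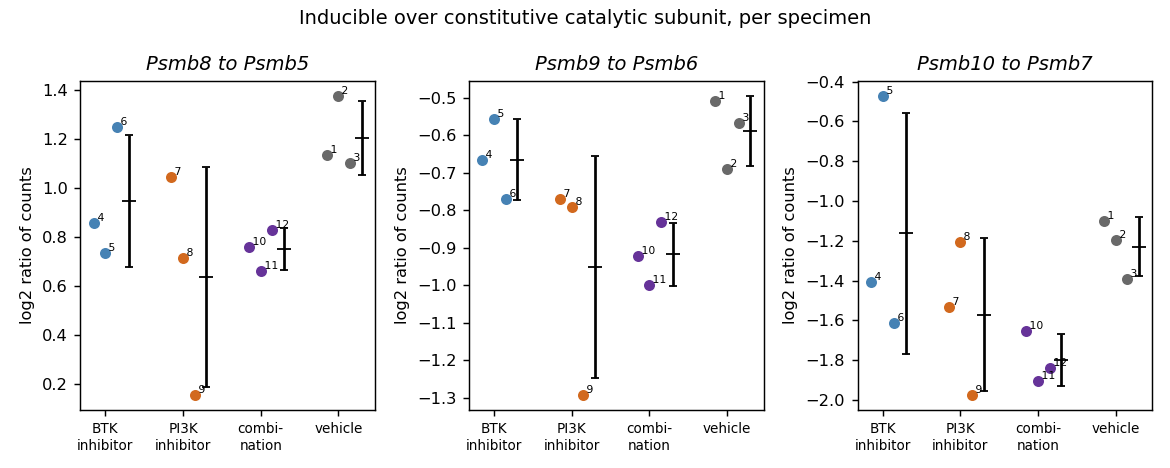
Log2 ratio of the counts of each inducible subunit to its constitutive counterpart (y axis, scales differ) in the BTK inhibitor, PI3K inhibitor, combination and vehicle groups, with numbered points for specimens and bars for the mean and SD (n = 3). In all 3 panels the combination points are below the vehicle points.

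Per length, Psmb8 made up 52.9% to 55.9% of Psmb8 plus Psmb5 in the combination, against 60.4% to 64.9% in vehicle. Psmb9 made up 39.1% to 41.9% of Psmb9 plus Psmb6 in the combination, against 44.3% to 47.5% in vehicle. Psmb10 made up 16.9% to 19.5% of Psmb10 plus Psmb7 in the combination, against 22.5% to 26.2% in vehicle. With the PI3K inhibitor the shares were 44.3% to 59.5% for Psmb8 and 34.4% to 42.98% for Psmb9, also below all vehicle specimens, and 16.3% to 24.8% for Psmb10, which overlapped with vehicle. With the BTK inhibitor they were 54.2% to 62.8%, 42.97% to 46.6% and 19.98% to 35.5%, all overlapping with vehicle. Psmb8 was the larger of its pair in every specimen but PI3K inhibitor replicate 9, and Psmb9 and Psmb10 were the smaller of theirs in all 12.

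The cap ATPases, Psmc1 to Psmc6, form the ring that unfolds substrate. All 6 had positive differences with the PI3K inhibitor (median 1.00), and Psmc3 and Psmc5 were past the threshold. Psmc3 had 318, 453 and 555 CPM in PI3K inhibitor specimens, against 217, 168 and 234 CPM in vehicle specimens (log2 1.10, SE 0.32, edgeR adjusted p = 0.046). Psmc5 had 126, 199 and 206 CPM in PI3K inhibitor specimens, against 72.8, 72.0 and 87.8 CPM in vehicle specimens (log2 1.19, SE 0.36, edgeR adjusted p = 0.0496). Neither gene overlapped between these groups, and in the combination the 6 ATPases had a median of 0.16.

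The 11 other cap subunits include the ubiquitin receptor Psmd4 and the deubiquitinating enzyme Psmd14. Their median log2 difference was 0.83 with the PI3K inhibitor, 0.83 with the BTK inhibitor and 0.17 in the combination, and 0 were past the threshold against vehicle in edgeR. The BTK inhibitor gave 7 and the PI3K inhibitor 5 that were higher at an unadjusted p under 0.05, and DESeq2 called 3 higher with each. Of all genes, 15.8% and 18.1% were higher at that unadjusted p, and 7.17% and 12.5% in DESeq2, in the same order. The 11 subunits spread widely with the PI3K inhibitor, 0.19 for the scaffold subunit Psmd3 and 1.21 for Psmd13. Psmd3 had 75.8, 56.3 and 91.7 CPM in BTK inhibitor specimens, against 70.0, 124 and 80.4 CPM in vehicle specimens, which overlap (log2 -0.29, edgeR adjusted p = 0.50).

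Psmd5, Psmd9 and Psmd10 are chaperones of cap assembly that do not stay in the finished particle. Psmd9 had the largest difference among the subunits with each inhibitor and with both. It had 78.3, 305 and 49.99 CPM in BTK inhibitor specimens and 78.2, 132 and 143 CPM in PI3K inhibitor specimens. It had 68.5, 58.4 and 44.7 CPM in the combination, against 27.4, 32.7 and 40.8 CPM in vehicle. All 9 treated specimens lay above the 3 vehicle specimens, and the 3 comparisons share these vehicle specimens. The log2 difference of Psmd9 was 2.10 with the BTK inhibitor (SE 0.54, edgeR adjusted p = 0.14), 1.81 with the PI3K inhibitor (SE 0.53, edgeR adjusted p = 0.047) and 0.76 in the combination (edgeR adjusted p = 1.00). At 2591 bases Psmd9 is among the longer subunits, and with the length term its difference with the PI3K inhibitor was 1.82 (edgeR adjusted p = 0.11). Psmd5 had 80.75, 67.0 and 69.4 CPM in the combination, against 51.4, 57.9 and 63.1 CPM in vehicle, also without overlap (log2 0.33, edgeR adjusted p = 1.00).

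Psmg1 to Psmg4 are chaperones that assemble the alpha ring. All 4 had positive differences with the PI3K inhibitor (median 1.40) and the BTK inhibitor (median 1.42), and their median in the combination was 0.15. Psmg3 had 41.4, 128 and 17.8 CPM in BTK inhibitor specimens, against 15.6, 12.7 and 21.0 CPM in vehicle, with replicate 6 inside the vehicle range (log2 1.91, SE 0.56, edgeR adjusted p = 0.14). In edgeR 0 of the 4 were past the threshold against vehicle. All 4 were higher at an unadjusted p under 0.05 with either inhibitor, beside 15.8% of all genes with the BTK and 18.1% with the PI3K inhibitor. DESeq2 called 2 with the BTK inhibitor and 4 with the PI3K inhibitor, beside 7.17% and 12.5% of genes. With the PI3K inhibitor the specimens of all 4 genes lay above vehicle without overlap, as did those of 24.9% of genes.

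The activators dock on the core in place of the cap. Psme1 and Psme2 form the interferon-inducible activator ring, Psme3 a nuclear one and Psme4 a single large chain. Psme1 (chr14:55578494-55581527, plus strand) had 307, 561 and 193 CPM in BTK inhibitor specimens and 256, 328 and 329.9 CPM in PI3K inhibitor specimens. It had 200.4, 155 and 147 CPM in the combination, against 223, 140 and 229 CPM in vehicle. Psme2 (chr14:55587440-55591101, minus strand) had 249, 606 and 121 CPM in BTK inhibitor specimens and 161, 279 and 268 CPM in PI3K inhibitor specimens. It had 131, 91.9 and 98.4 CPM in the combination, against 143, 92.0 and 144 CPM in vehicle. For both, the PI3K inhibitor specimens were above all vehicle specimens and the combination overlapped with vehicle. Their log2 differences in the combination were -0.24 each, beside 0.63 and 0.90 with the PI3K inhibitor for Psme1 and Psme2 (edgeR adjusted p = 0.21 and 0.18).

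Psme4, the longest subunit gene at 6442 bases, was the 1 subunit with a negative difference with the PI3K inhibitor. It had 62.5, 51.3 and 55.04 CPM in PI3K inhibitor specimens, against 72.8, 113 and 68.6 CPM in vehicle specimens, without overlap (log2 -0.59, SE 0.29, edgeR adjusted p = 0.17). With the length term its difference was 0.14. Psme3 had 172, 132 and 168 CPM in BTK inhibitor specimens, against 143, 228 and 193 CPM in vehicle specimens, which overlap (log2 -0.26, edgeR adjusted p = 0.54).

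Psmf1 inhibits the core in vitro by binding its ends. It had 68.4, 68.0 and 61.8 CPM in the combination, against 30.7, 56.2 and 41.7 CPM in vehicle, without overlap (log2 0.62, SE 0.28, edgeR adjusted p = 1.00). With the PI3K inhibitor it had 56.3, 56.6 and 83.0 CPM, also all above vehicle, the lowest by under 1 CPM (log2 0.61, edgeR adjusted p = 0.15). The length term gave 0.61 for the combination and 0.85 for the PI3K inhibitor.

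Set against the single inhibitors, the combination had lower subunit levels. Against the PI3K inhibitor the median log2 difference was -0.94, 45 of 47 being negative, and against the BTK inhibitor -0.81, 41 of 47 being negative. Without BTK inhibitor replicate 5 the median against the BTK inhibitor was -0.42, and without BTK inhibitor replicate 6 it was -1.12. In edgeR 0 subunits and 0% of genes were lower past the threshold in either comparison, while DESeq2 called 10 subunits and 3.8% of genes lower than with the PI3K inhibitor, and 8 subunits and 4.04% of genes lower than with the BTK inhibitor. At an unadjusted p under 0.05, 32 subunits and 14.7% of genes were lower than with the PI3K inhibitor, and 27 subunits and 13.9% of genes were lower than with the BTK inhibitor. By that rule 1 subunit was higher in each comparison, beside 1788 of 12742 genes against the PI3K inhibitor and 798 against the BTK inhibitor. Against the PI3K inhibitor it was Psme4 (log2 0.72, -0.015 with the length term). Against the BTK inhibitor it was Psmf1 (log2 0.74, 0.50 with the length term). Specimens did not overlap, with the combination lower, for 39 subunits and 24.6% of genes against the PI3K inhibitor, and for 1 subunit and 6.73% of genes against the BTK inhibitor. That 1 subunit was Psmb8, with a log2 difference of -0.94 (edgeR adjusted p = 0.19). Psma2 had the smallest p against the PI3K inhibitor (log2 -1.12, edgeR adjusted p = 0.13), and Psmb10 against the BTK inhibitor (log2 -1.38, edgeR adjusted p = 0.19). With the length term the medians were -0.29 and -0.29, and without BTK inhibitor replicate 6 edgeR called 28 subunits and 14.7% of genes lower than with the BTK inhibitor.

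The interaction, which is the combination minus both single inhibitor groups plus vehicle, measures how far the combination lay from the sum of the single effects. It was added after the data were seen. Its median over the subunits was -1.80, against 0.05 over all genes, and 33 of 47 subunits were lower past the threshold in edgeR, where 15.6% of genes were. At an unadjusted p under 0.05 the counts were 38 subunits and 23% of genes. The interaction was positive for 4 subunits, highest for Psme4 (log2 0.95), and 1 subunit and 2555 of 12742 genes were higher at that unadjusted p. All 4 structural beta subunits, all 3 constitutive and all 3 inducible catalytic subunits and 7 of the 8 alpha subunits were among the 33. The lowest were Psmg3 (log2 -3.31, SE 0.79, edgeR adjusted p = 0.020), Psmb4 (log2 -3.23, SE 0.75, edgeR adjusted p = 0.020) and Psmd9 (log2 -3.14, SE 0.75, edgeR adjusted p = 0.020). With the length term the median was -0.49 and 0 subunits were called. The count was also 0 without vehicle replicate 2, without PI3K inhibitor replicate 8 or 9, or without combination replicate 11 or 12. In each of these fits at most 1 of all tested genes was called in the interaction, so the loss of calls was not particular to the subunits.

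The count of 7 with the PI3K inhibitor likewise changed with single libraries, as did the count over all genes. Subunit calls were 0 without any 1 of the 3 vehicle specimens, of PI3K inhibitor replicates 8 and 9 or of the 3 combination specimens. In each of these fits 0 of all tested genes were called in this comparison. The combination specimens are in neither group compared, and enter through the spread estimated from all specimens. Without BTK inhibitor replicate 5 the count was 36 subunits, with 17.1% of genes called higher. It was 28, with 13.3% of genes, without BTK inhibitor replicate 6, and 23, with 8.08% of genes, without PI3K inhibitor replicate 7.

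Other genes of the pathway were followed in lists. The 21 partners and regulators include receptors, shuttle factors and Nfe2l1, the factor that drives subunit genes when the proteasome fails. Of these 21, 1 rose past the threshold with the PI3K inhibitor, a share close to the 4.84% of all genes that edgeR called higher. The list's median log2 difference was -0.03. The 1 gene was Txnl1, which binds the cap, with 205, 212 and 383 CPM in PI3K inhibitor specimens, against 110.3, 92.8 and 149 CPM in vehicle (log2 1.19, edgeR adjusted p = 0.041). Pomp, the chaperone that matures the core, had 186, 338 and 388 CPM in PI3K inhibitor specimens, against 141, 86.1 and 162 CPM in vehicle (log2 1.23, edgeR adjusted p = 0.097). Shfm1, a very short gene for a small cap subunit, reached 2428 CPM in BTK inhibitor replicate 5, against 187 to 260 CPM in vehicle (log2 2.22, edgeR adjusted p = 0.14). Nfe2l1 differed by -0.60 (edgeR adjusted p = 0.18) with the PI3K inhibitor. The 10 genes of the list for ubiquitin supply and the segregase VCP had a median log2 difference of 0.41 with the PI3K inhibitor.

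Of 14 tested genes of MHC class I presentation, 0 were past the threshold in edgeR in the 3 comparisons with vehicle. At an unadjusted p under 0.05, 1 was higher (Calr) and 2 were lower (H2-Q4 and Nlrc5) with the BTK inhibitor, 1 was lower with the PI3K inhibitor (Nlrc5, the 1 call of DESeq2) and 0 differed in the combination. Of all genes, 8.97% were lower with the BTK inhibitor and 17.6% with the PI3K inhibitor by that rule, and DESeq2 called 12.7% lower with the PI3K inhibitor, so the share of these 14 lower with the PI3K inhibitor was under that of all genes. In the combination 13 of the 14 had negative differences, with a median of -0.29, where 6341 of 12742 genes were negative. Those of smallest p there were Tap1, H2-K1, B2m and H2-T23. Tap1, which loads peptides made by the proteasome into the endoplasmic reticulum, had 95.1, 87.1 and 97.8 CPM in the combination, against 120.2, 130.2 and 121 CPM in vehicle, without overlap. B2m, the light chain of class I, had 1143, 804 and 981 CPM in the combination, against 1314, 1163 and 1513 CPM in vehicle, also without overlap (log2 -0.45, edgeR adjusted p = 1.00).

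Of 15 genes of interferon signalling, 4 fell past the threshold with the PI3K inhibitor, where edgeR called 5.82% of all genes lower, and the median was -0.76. They were Ifnar1, a chain of the type I receptor, the kinases Jak1 and Tyk2, and Irf7, a factor for type I interferon genes. Irf7 had 48.1, 35.8 and 53.9 CPM in PI3K inhibitor specimens and 46.5, 48.4 and 34.05 CPM in the combination, against 87.9, 73.7 and 109 CPM in vehicle. Its log2 difference was -0.97 with the PI3K inhibitor (edgeR adjusted p = 0.045) and -1.07 in the combination (edgeR adjusted p = 0.67). Over the list the median was -0.50 with the BTK inhibitor and -0.35 in the combination, where 14 of 15 were negative. With the length term the list's median with the PI3K inhibitor was -0.49 and 0 of the 4 were past the threshold, as for all 12742 genes in that fit.

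Markers of marrow cell types differed between the groups too. Neutrophil markers summed to 82606 to 216011 CPM with the BTK inhibitor, 101765 to 199443 with the PI3K inhibitor and 59996 to 76804 in the combination, against 87199 to 113158 in vehicle, and all 11 had negative differences in the combination. With the PI3K inhibitor 7 of the 11 were negative, with a median of -0.31 (-0.81 with the length term). Of the 11, 2 fell past the threshold (Csf3r and Cxcr2), beside 5.82% of all genes, while S100a8, S100a9, Camp and Retnlg were positive. For 11 monocyte and macrophage markers the sums were 2017 to 2758, 1716 to 2277 and 2052 to 2513 CPM in the same groups, against 2805 to 3292 in vehicle. Of these, 4 fell with the PI3K inhibitor (Fn1, Ace, F13a1 and Cx3cr1), beside 5.82% of all genes called lower, and the median was -0.98. For 10 erythroid markers the sums were 1256 to 2447, 1898 to 3702 and 3098 to 3434 CPM, against 597 to 2478 in vehicle. The median log2 difference of the erythroid list was 0.42 with the BTK inhibitor, 1.11 with the PI3K inhibitor and 1.10 in the combination. In the same order, 6, 9 and 10 of its 10 markers had positive differences. With the PI3K inhibitor edgeR called 3 of the 10 higher, beside 4.84% of all genes, and DESeq2 called 6, beside 12.5%. With the BTK inhibitor edgeR called 0 and DESeq2 called 1, beside 0% and 7.17% of genes. In the combination both called 0, while 7 were higher at an unadjusted p under 0.05 in edgeR, beside 3.41% of genes. The sums of 10 dendritic cell markers were 192 to 641, 174 to 231 and 169 to 227 CPM, against 148 to 199 in vehicle. Those of 10 B-lineage precursor markers were 179 to 434, 172 to 209 and 175 to 207 CPM, against 110 to 253 in vehicle. Mature B cell markers, 7 in number, gave 462 to 783, 629 to 827 and 509 to 888 CPM, against 620 to 792 in vehicle. T and NK cell markers, 10 in number, gave 148 to 513, 288 to 328 and 151 to 204 CPM, against 171 to 292 in vehicle. The part of cell composition in the subunit differences was not tested.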

How the data were processed

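RNA was made into full-length cDNA with a SMART-Seq kit for low input and tagmented with Nextera XT, per the labels' protocols. Strand was not marked, so reads of a gene and of an overlapping antisense gene cannot be told apart. Psma4 shares 45 such bases with AY074887 and Psme1 shares 4 with Emc9. On the same strand, Psmb5 shares 109 bases, 12.5% of its length, with Mir686, which had 0 counts. How reads of that stretch were assigned is not recorded, and Psmb5 enters the ratio and share of Psmb8. The authors deposited whole-number counts per gene, with gene length in bases, from STAR alignment and featureCounts on mm10, per the submitters' processing notes, with no version or setting recorded there. The length is another measure (other) that the authors deposited beside the counts. Each specimen has 1 column, though 24 samples are listed. Columns without a sample: 0.

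Counts were fitted in R 4.3.3 with edgeR 4.0.16 (TMM, filterByExpr with a smallest count of 10 and a total of 15, a group-means quasi-likelihood model over all 12 specimens, robust, Benjamini-Hochberg over 12742 genes, threshold 0.05). CPM used TMM library sizes, and log2 CPM a prior count of 2. The length term was an offset from a spline of log2 length fitted in each library (5 degrees of freedom). Ratios of counts were tested by exact permutation. The alternatives were DESeq2 1.42.0, RLE size factors, no filter, the length term with and without BTK inhibitor replicate 5, and each specimen left out. The scripts were tested on simulated data. Precision rests on depth and on 3 specimens per group.

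The subunits were chosen by symbol, and these and the 11 lists were chosen with earlier results of these data known. Values in every specimen were given for the 6 catalytic subunits, Psme1 and Psme2. The rule for naming took, in each comparison, up to 6 subunits per direction with the largest change past the threshold. Where fewer than 3 passed it took the 3 of smallest p, and it took up to 4 genes of a pathway list. Values of some of these subunits are not reported here for the BTK inhibitor against vehicle, the combination against single inhibitors and the interaction. Psmd13, Psmg1 to Psmg4 as a group, Pomp, Shfm1, Nfe2l1, Calr, H2-Q4, Nlrc5, Psma1, Psma6 and the cell type markers were named or singled out after their values were seen. The same holds for Psmb8 in the combination against the BTK inhibitor. Results of some genes of the lists are not reported here. Promoter windows came from RefSeq, GRCm38.p6.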

Additional observations from a re-analysis of the deposited data

Results flagged for a closer look

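These values are of the interaction term in edgeR's quasi-likelihood test, which compares the effect of 1 inhibitor with and without the other. For 33 of 47 subunits the interaction was lower past the adjusted threshold of 0.05, beside 15.6% of all genes, and the median log2 interaction of the 47 was -1.80. Among the constitutive catalytic subunits it was -1.83 for Psmb5, -2.42 for Psmb6 and -1.76 for Psmb7. Among the inducible ones it was -1.39 for Psmb8, -2.31 for Psmb9 and -2.19 for Psmb10. With the length term in the model, 0 subunits were past the threshold, and the count was also 0 when any 1 of 5 specimens was left out (vehicle 2, PI3K inhibitor 8, PI3K inhibitor 9, combination 11, combination 12). In each of these fits at most 1 of all tested genes was called in the interaction. The libraries' length slopes were negative in 5 of the 6 single inhibitor specimens and positive in all 3 combination and all 3 vehicle specimens, so they move with the interaction.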

How the results depend on the processing

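DESeq2 called 14 subunits higher with the BTK inhibitor, 28 higher with the PI3K inhibitor, and 8 and 10 lower in the combination than with the BTK and PI3K inhibitors. With the length offset, 0 were called higher with the PI3K inhibitor and 0 lower in the interaction (2 without BTK inhibitor replicate 5). Of all genes that fit called 0 with the PI3K inhibitor and 1 in the interaction (4.16% without that specimen). With the offset, the median log2 difference of the subunits against vehicle was 0.28 for BTK inhibitor and 0.36 for PI3K inhibitor. It was -0.29 for combination against PI3K inhibitor and -0.49 for the interaction. Without BTK inhibitor replicate 5 as well, these were 0.15, 0.37, -0.29 and -0.41, and -0.10 for combination against BTK inhibitor. Before adjustment, the exact p for Psmb9 to Psmb6 was 0.0146 with the offset and 0.0449 with 5 CPM added. Leaving out 1 specimen at a time, counts ranged from 0 to 32 (BTK inhibitor higher), 0 to 36 (PI3K inhibitor higher), 0 to 28 lower and 0 to 1 higher (combination against BTK inhibitor), 0 to 29 lower (combination against PI3K inhibitor), and 0 to 37 lower and 0 to 1 higher (interaction). Medians ranged from 0.55 to 1.13 (BTK inhibitor), 0.82 to 1.20 (PI3K inhibitor) and -0.02 to 0.23 (combination) against vehicle. Exact p values ranged from 0.0197 to 0.344 for Psmb8 to Psmb5, 0.0115 to 0.142 for Psmb9 to Psmb6 and 0.0919 to 0.368 for Psmb10 to Psmb7.

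Of 1071 alternative values for named genes, 34 had the other sign. With the offset and the BTK inhibitor, Psme4 was 0.26 (0.024 without replicate 5), Psmb5 -0.024 and Psmb8 -0.067 (-0.020 without it); Psmb9 was -0.0018 and Psme1 -0.12 only without it. With the PI3K inhibitor, with and without that specimen, Psme4 was 0.14 and 0.13, Psmb8 -0.24 and -0.24, Psmb9 -0.089 and -0.083, Psme1 -0.20 and -0.19. In the combination against vehicle Psmb6 was -0.020 and -0.017; against the PI3K inhibitor Psme4 was -0.015 and -0.014 and Psmf1 -0.24 and -0.24; against the BTK inhibitor Psmb7 was 0.013. Leaving out single specimens gave -0.44 to 0.032 for Psme4 with the BTK inhibitor, -0.24 to 0.090 for Psmb5 and -0.14 to 0.17 for Psmb6 in the combination, and -0.078 to 0.22 for Psmf1 in the combination against the PI3K inhibitor. The cause was not tested. No paired analysis was possible because the groups share no specimen number. Low counts limit Psma8 and Psmb11, and 3 specimens per group limit each comparison.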
